A study of Mus musculus with 22 samples.

Results

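The comparison described here sets 6 arrays of PGC-1alpha lung metastases from mice given phenformin against 6 arrays of PGC-1alpha lung metastases from mice given PBS. These 12 arrays were chosen by their titles from the 22 arrays of the series, and every gene with a probe set was eligible: 19505 genes had 1 probe set each, and 15545 of them were bright enough to be tested. Expression was measured on microarrays from RNA of lung metastases taken by laser capture microdissection, with 10 ng of RNA per sample. In all mice the metastases grew from NMuMG cells, an epithelial line from the mammary gland of a mouse, that carry the ErbB2 oncogene and were injected into the tail vein. The cells of this comparison, NMuMG-ErbB2/PGC-1alpha, also overexpress the coactivator PGC-1alpha, and the cells of the other line, NMuMG-ErbB2/VC, carry the control vector. Phenformin was given for 1 week. Control metastases under phenformin (5 arrays) and PBS (5 arrays) are described below only to set the same treatment beside it in the other line. Their arrays also took part in the choice of probe sets, the filter and the joint limma model. They therefore entered the spread behind the standard errors, intervals and limma p-values of this comparison. The median SD over tested genes was 0.242 and 0.263 in control metastases, against 0.215 and 0.224 in PGC-1alpha metastases, under phenformin and PBS. The labels give no mouse strain, age, phenformin dose or promoter, do not say whether each line was 1 clone, and do not say how many mice stand behind the 6 arrays of a group. If captured regions shared a mouse, the p-values given here are too small and the intervals too narrow.

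Phenformin is a biguanide, a relative of metformin, that inhibits respiratory complex I, the NADH dehydrogenase at the entry of the mitochondrial respiratory chain. Loss of complex I activity is known to raise the cell's AMP and NADH, to activate the kinase AMPK, to shift carbon use towards glycolysis and to engage the integrated stress response through ATF4. PGC-1alpha, encoded by Ppargc1a, binds nuclear receptors and other factors on DNA and is known for driving the genes of mitochondrial biogenesis and respiration. The design therefore asks which transcripts differ under a complex I inhibitor in tumours with forced PGC-1alpha expression.

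The 22 arrays were alike in overall signal, with medians of 6.55 to 6.64 on the log2 scale and an area under the curve for positive against negative control probe sets of 0.902 to 0.938. Between the 6 phenformin and the 6 PBS arrays the array medians averaged 6.62 ± 0.01 and 6.60 ± 0.02 (SD, n = 6 each; two-sided exact permutation p = 0.080, 0.00216 being the smallest that 6 against 6 allows). The 25th percentile of the arrays averaged 5.197 ± 0.02 under phenformin and 5.129 ± 0.08 under PBS (exact permutation p = 0.080), and the median of the positive controls 8.91 ± 0.06 under phenformin and 8.998 ± 0.09 under PBS (exact permutation p = 0.084; SD, n = 6 each). These differences, 0.07 and -0.09, are about as large as many of the list medians below, and their part in those was not tested. Ppargc1a averaged 8.64 ± 0.79 under phenformin and 8.90 ± 0.37 under PBS in PGC-1alpha metastases (SD, n = 6 each), and 8.04 ± 0.39 and 7.54 ± 0.60 in control metastases (SD, n = 5 each), so the levels of the lines overlapped. Within the PGC-1alpha line the difference for Ppargc1a was -0.27 (SE 0.30, exact permutation p = 0.470). That for Erbb2 was -0.01 (SE 0.14, exact permutation p = 0.957), and the sign of both values turned under some settings. Whether the Erbb2 probe set reads the ErbB2 oncogene that both lines carry was not tested. The epithelial keratins Krt8 and Krt18 were bright on every array, at 12.17 to 12.35 under phenformin and 12.22 to 12.32 under PBS for Krt8. All 12 tested markers of mammary tumour epithelium lay above the negative controls in both groups, and so did most markers of lung and immune cells. In captured tissue a smaller share of a cell type and less RNA per cell cannot be told apart.

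No gene passed the test between phenformin and PBS in PGC-1alpha metastases: 0 of 15545 genes (0%) had an adjusted p under 0.05 (limma moderated test with Benjamini-Hochberg adjustment). The smallest adjusted p was 0.586, for Psat1, and every other gene stood at 0.957 or above. At an unadjusted p under 0.05 there were 674 genes, fewer than the 777 that an even spread of p-values would give. Of these 674 genes, 322 were higher under phenformin (2.07% of the genes tested) and 352 were lower (2.26%). The number moved to 1053 without PBS array 2 and to 407 without PBS array 4, and no gene passed in either case. The 6 phenformin arrays lay entirely above the 6 PBS arrays for 11 genes (0.0708%) and entirely below them for 23 genes (0.148%).

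Gene by gene, the measurement nevertheless bounded most differences in signal, with intervals that would be too narrow if captured regions shared a mouse. For genes near the negative controls, bounds on the signal may not hold for the transcript. The median log2 difference of phenformin minus PBS was -0.01 over all tested genes, with -0.27 and 0.26 as the 5th and 95th percentiles, and the median standard error was 0.14. The 95% confidence interval of the difference lay within a 2-fold change either way for 15316 genes (98.5%) and within a 1.5-fold change for 13039 genes (83.9%). Only 17 genes had a log2 difference beyond 1, all with the higher mean under phenformin, and they include genes of club cells and cilia, described further on. The same comparison in control metastases also passed no gene (0%; smallest adjusted p = 0.188).

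**Figure D1:**
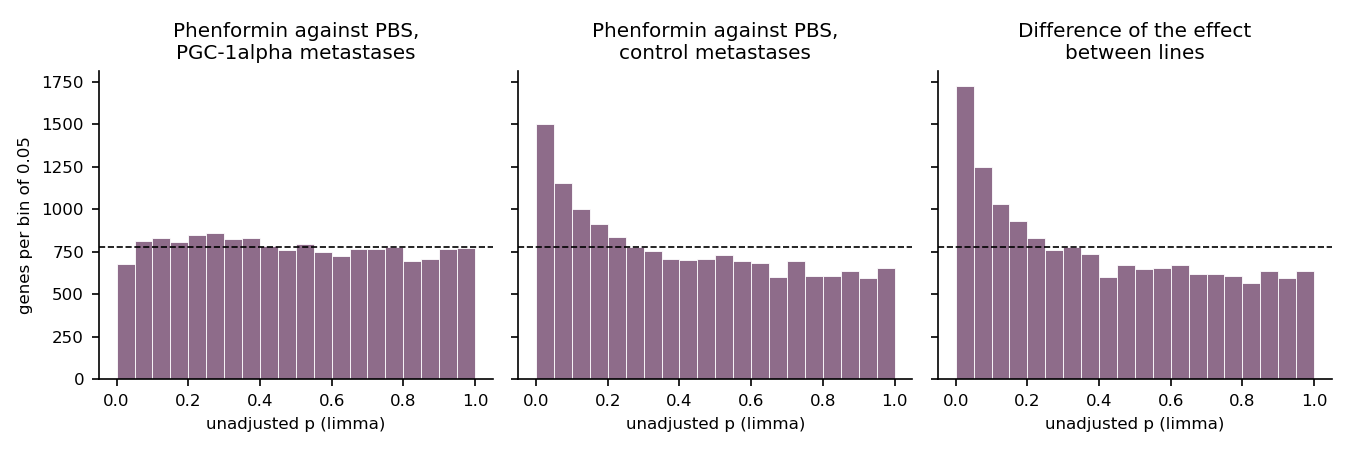
Number of genes per bin of unadjusted limma p-value (x axis, bins of 0.05) for phenformin against PBS in PGC-1alpha metastases (left), in control metastases (middle) and for the difference of both effects (right). The dashed line marks the 777 genes per bin that an even spread gives: the lowest bin holds 674 genes on the left, 1498 in the middle and 1724 on the right.

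The gene with the smallest p was Psat1, which encodes phosphoserine aminotransferase, the enzyme of the second step of serine synthesis. Its log2 level had a lowest, median and highest value of 7.52, 7.95 and 8.30 on the phenformin arrays, against 8.33, 8.73 and 8.95 on the PBS arrays. All 6 phenformin arrays lay below all 6 PBS arrays, although the highest phenformin array and the lowest PBS array nearly touched. The difference was -0.77 (SE 0.15; 95% interval -1.09 to -0.46), a 1.71-fold lower level under phenformin, with an unadjusted p of 3.77e-05 and an adjusted p of 0.586 in the limma test. In control metastases Psat1 averaged 8.79 ± 0.27 under phenformin and 8.46 ± 0.33 under PBS (SD, n = 5 each), a difference of 0.33 (SE 0.17).

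The enzymes on either side of Psat1 in serine synthesis had smaller differences of the same sign. Phgdh, phosphoglycerate dehydrogenase of the first step, had 9.29, 9.59 and 10.02 under phenformin (lowest, median, highest), against 9.67, 9.88 and 10.04 under PBS, a difference of -0.28 (SE 0.13). Psph, phosphoserine phosphatase of the last step, had 8.81, 9.11 and 9.58 under phenformin, against 9.18, 9.43 and 9.55 under PBS, a difference of -0.30 (SE 0.14). In each of these genes 4 of the 6 phenformin arrays lay below all PBS arrays and the groups overlapped. Mthfd2, a mitochondrial folate enzyme that takes on one-carbon units derived from serine, differed by -0.29 (SE 0.15) and was not separated either, with -0.40 in control metastases. None of the 3 passed (adjusted p = 0.957 for each in limma).

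Fkbp5, a co-chaperone of the glucocorticoid receptor whose gene is a known glucocorticoid target, was another of the leading genes. It had 7.13, 7.34 and 7.56 under phenformin, against 7.58, 7.92 and 8.66 under PBS, a difference of -0.61 (SE 0.16; 95% interval -0.95 to -0.28). The groups did not overlap, but the highest phenformin and the lowest PBS array nearly touched. Its unadjusted p was 0.000866 and its adjusted p 0.957 (limma).

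The promoters of Psat1 and Fkbp5 are shown because both genes lead the comparison, did not overlap between the groups and belong to well-known pathways. Each is the stretch of 250 bases before an annotated start (RefSeq, GRCm38.p6, minus strand, printed 5′ to 3′), and Psat1 has 2 annotated starts. Capitals mark the E-box CACGTG.

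Psat1, chr19:15924623-15924872: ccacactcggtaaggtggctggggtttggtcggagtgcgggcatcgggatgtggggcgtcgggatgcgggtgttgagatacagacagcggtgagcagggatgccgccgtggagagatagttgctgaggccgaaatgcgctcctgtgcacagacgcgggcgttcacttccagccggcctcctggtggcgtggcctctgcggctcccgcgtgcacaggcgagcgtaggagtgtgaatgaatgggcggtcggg

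Psat1, chr19:15925060-15925309: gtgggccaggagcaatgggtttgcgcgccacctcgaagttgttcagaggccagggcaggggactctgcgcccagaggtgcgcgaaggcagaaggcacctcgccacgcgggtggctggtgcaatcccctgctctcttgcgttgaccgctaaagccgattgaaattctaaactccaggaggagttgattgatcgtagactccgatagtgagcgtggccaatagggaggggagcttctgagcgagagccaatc

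Fkbp5, chr17:28486150-28486399: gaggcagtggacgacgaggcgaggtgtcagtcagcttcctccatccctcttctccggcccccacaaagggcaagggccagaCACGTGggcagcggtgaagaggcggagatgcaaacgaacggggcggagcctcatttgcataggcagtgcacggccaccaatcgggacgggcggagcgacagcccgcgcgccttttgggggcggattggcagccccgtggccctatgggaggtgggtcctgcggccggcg

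Of 7 motifs searched on both strands, the Fkbp5 window held the E-box, starting 169 bases before the start, and no other. Neither Psat1 window held any of the 7, which were the E-box CACGTG (in 6.02% of 32851 promoters of the table), the D-box TTATGNAA (3.07%), the palindromic glucocorticoid element (0.387%), the CEBP-ATF element TGATGNAA (3.45%), the antioxidant element TGACNNNGC (10.2%), the sterol element TCACNCCAC (1.05%) and the orphan receptor element TCAAGGTCA (0.387%). Promoters were found for 17 of the 20 leading genes. A match is a stretch of letters and not a measured binding site.

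The other genes with the smallest p among those with a lower mean under phenformin were of mixed function. Ndrg3, of the N-myc downstream regulated family, had 6.54, 6.62 and 6.74 under phenformin, against 6.94, 7.30 and 7.64 under PBS, a difference of -0.65 (SE 0.18), and its groups did not overlap. Its phenformin arrays were tightly grouped and its PBS arrays were spread more widely. Exoc3, a subunit of the exocyst that tethers secretory vesicles, differed by -0.46 (SE 0.11; unadjusted p = 0.00052 in limma), with 5 of 6 phenformin arrays below all PBS arrays. Ldah, a lipid droplet hydrolase, differed by -0.45 (SE 0.11), Dbr1, which opens intron lariats, by -0.62 (SE 0.17), and Gemin2, which helps to assemble spliceosomal particles, by -0.56 (SE 0.16), each with 5 of 6 phenformin arrays below all PBS arrays. Pxdc1 differed by -0.55 (SE 0.16), and the orphan nuclear receptor gene Nr2f6 by -0.49 (SE 0.14). Adjusted p was 0.957 in limma for each of these genes.

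The genes with the smallest p among those with a higher mean under phenformin had differences of 0.35 to 0.47, and none passed (adjusted p = 0.957 for each in limma). Fam131c had 5.18, 5.32 and 5.43 under phenformin, against 4.53, 4.81 and 5.30 under PBS, a difference of 0.46 (SE 0.11; unadjusted p = 0.000393 in limma), and 1 PBS array reached into the phenformin range. On PBS arrays 1, 4 and 5 its values, 4.53, 4.82 and 4.79, lay below the negative control medians of 4.84, 4.85 and 4.95. Tnxb, which encodes the matrix protein tenascin X, had 7.79, 8.11 and 8.27 under phenformin, against 7.37, 7.61 and 7.87 under PBS, a difference of 0.46 (SE 0.13), with 5 of 6 phenformin arrays above all PBS arrays. The RING finger gene Rnf150 differed by 0.36 (SE 0.10) and the kinesin gene Kif21b by 0.40 (SE 0.12), both with no overlap between the groups. Sufu, a suppressor of Hedgehog signalling, differed by 0.40 (SE 0.12), and Zer1, a substrate receptor of a ubiquitin ligase, by 0.35 (SE 0.10). For Btg4 the PBS mean lay below the negative controls, so its difference of 0.44 (SE 0.12) is 0.35 with each array's value held at or above that background. Eras differed by 0.42 (SE 0.12), Kirrel2 by 0.46 (SE 0.14) and Ttll6 by 0.47 (SE 0.14), all with overlapping groups.

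**Figure D2:**
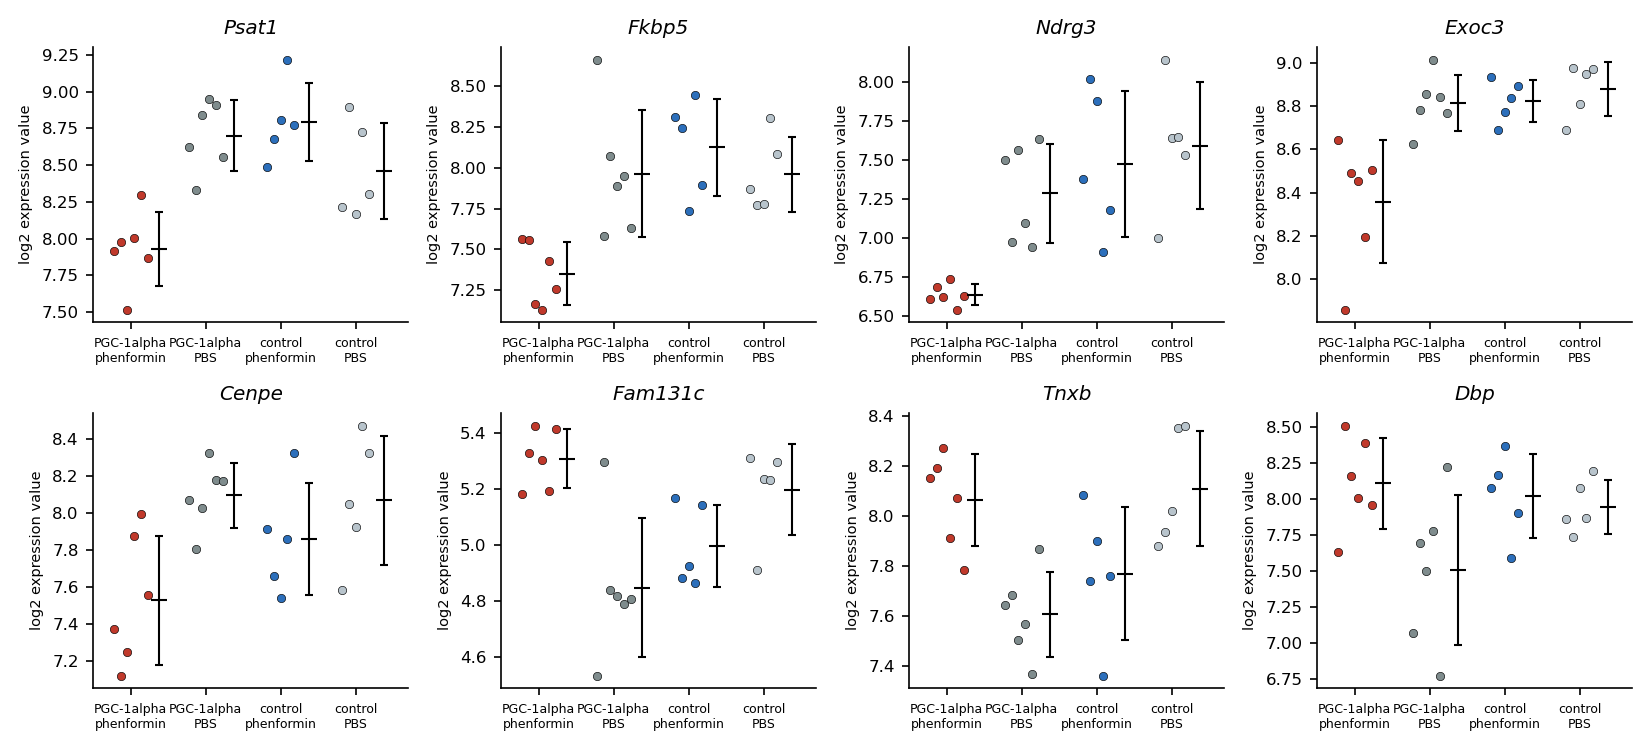
Log2 expression value per array (points) with mean and SD (bars) for 8 genes, in PGC-1alpha metastases under phenformin and PBS and in control metastases under phenformin and PBS, from left to right. Psat1, Fkbp5 and Ndrg3 show no overlap between the 6 phenformin and the 6 PBS arrays of the PGC-1alpha line, and the other 5 do.

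Complex I, the target of phenformin, was covered by 36 tested subunit genes, and none passed. Their median difference was -0.08, against -0.01 over all tested genes, with 6 differences above 0 and 30 below. Cyclic loess scaling moved that median to -0.03. For all 36 genes the 95% interval lay within a 2-fold change, and for 35 within a 1.5-fold change. The mean level of the list was 9.71, 9.78 and 9.98 on the phenformin arrays (lowest, median, highest), against 9.80, 9.88 and 10.02 on the PBS arrays, and the groups overlapped. Ndufs1, the large iron-sulphur core subunit, had 6.13, 6.47 and 6.51 under phenformin, against 6.26, 6.80 and 6.91 under PBS, a difference of -0.30 (SE 0.13). Ndufs4, an accessory subunit needed for assembly, differed by -0.22 (SE 0.10) and Ndufb3 by -0.21 (SE 0.11). In Ndufs4, 5 phenformin arrays lay below all PBS arrays and phenformin array 1 stood apart at 9.80.

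The other parts of respiration were much like complex I. Complexes II to IV had a median difference of -0.07 over 29 genes, among them the Rieske subunit Uqcrfs1 at -0.21 (SE 0.10) and the succinate dehydrogenase anchor Sdhd at -0.22 (SE 0.13). All 16 tested genes of ATP synthase had a difference below 0, with a median of -0.11 and a largest size of 0.25 for the gamma subunit gene Atp5c1. The mitochondrial ribosome had a median of -0.12, with 42 of 46 differences below 0, against 8258 of the 15545 tested genes. In it 3 genes were lower at an unadjusted p under 0.05 in limma (6.52%, against 2.26% of all tested genes), which were Mrpl13 at -0.41 (SE 0.14), Mrpl18 at -0.32 (SE 0.12) and Mrpl3 at -0.27 (SE 0.13). The cytosolic ribosome ran the same way with smaller values, a median of -0.06 and 27 of 28 differences below 0. Over all genes the difference also went with brightness: the dimmest 3109 tested genes had a median difference of 0.06 and the brightest 3109 one of -0.06, with 66.8% and 25.8% of differences above 0. In control metastases the same sets had medians of -0.08 and 0.03. Cyclic loess scaling moved the medians to -0.01 for complexes II to IV, -0.05 for ATP synthase, -0.08 for the mitochondrial ribosome and -0.03 for the cytosolic ribosome. The part of brightness in these moves and in the list medians was not tested.

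Genes that PGC-1alpha works with or drives did not separate. The mitochondrial biogenesis list had a median of -0.06 over 26 genes, which was -0.02 when quantile normalisation was applied again. Tfam, the mitochondrial DNA packaging and transcription factor, had 6.11, 6.19 and 6.77 under phenformin, against 6.40, 6.67 and 7.06 under PBS, a difference of -0.39 (SE 0.19), with 4 phenformin arrays below all PBS arrays. Pprc1, a relative of PGC-1alpha, differed by -0.31 (SE 0.17) and the orphan nuclear receptor gene Esrrg by 0.23 (SE 0.16). Fatty acid oxidation had a median of -0.08 over 19 genes, with Hadhb, a subunit of the trifunctional protein, at -0.25 (SE 0.14) and the muscle-type carnitine palmitoyltransferase gene Cpt1b at 0.19 (SE 0.12). The citrate cycle had a median of -0.04 over 18 genes, which turned to 0.02 with the same quantile normalisation. Within it, Pcx, pyruvate carboxylase, had a difference of 0.27 (SE 0.13), and Dld, a subunit shared by the pyruvate and oxoglutarate dehydrogenases, one of -0.33 (SE 0.16) with PBS array 3 apart at 6.82.

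Glycolysis and hypoxia genes had medians close to that of all genes. Over 22 glycolysis genes the median was 0.05, against 0.19 in control metastases, and over 20 hypoxia genes it was 0.04, against 0.20 in control metastases. The neuronal-type glucose transporter gene Slc2a3 had 4.95, 5.23 and 5.45 under phenformin, against 4.28, 4.77 and 4.97 under PBS, a difference of 0.48 (SE 0.19). The PBS mean of Slc2a3 lay below the negative controls, and the difference was 0.32 with each array's value held at or above them. Pfkp, a platelet-type phosphofructokinase, differed by 0.24 (SE 0.20), Adm, which encodes adrenomedullin, by 0.31 (SE 0.29), and Vegfa, the vascular growth factor, by 0.20 (SE 0.12). AMPK and nutrient sensing genes had a median of -0.09 over 23 genes. The AMPK catalytic subunit gene Prkaa1 differed by -0.21 (SE 0.11), and Camkk2, an upstream kinase of AMPK, by -0.28 (SE 0.17).

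The integrated stress response list, which holds the serine enzymes, had a median of -0.08 over 31 genes. Lower at an unadjusted p under 0.05 in limma were 3 genes, Psat1, Psph and Phgdh (9.68%, against 2.26% of all tested genes). Higher was 1 gene, the transcription factor gene Cebpb at 0.28 (SE 0.13; 3.23%, against 2.07% of all tested genes). Atf4, the central factor of this response, had 10.80, 10.97 and 11.12 under phenformin, against 10.999, 11.13 and 11.19 under PBS, a difference of -0.15 (SE 0.10), with overlapping groups. The unfolded protein response had a median of -0.01, and for all 19 of its genes the interval lay within a 1.5-fold change. Xbp1, its splicing-activated transcription factor, differed by 0.20 (SE 0.13) with 4 phenformin arrays above all PBS arrays. The folate cycle and purine synthesis list had a median of -0.15, with Ppat, of the first committed step of purine synthesis, at -0.29 (SE 0.14) and the folate enzyme gene Mthfd1 at -0.28 (SE 0.12). Cholesterol synthesis had a median of -0.12, with 18 of 19 differences below 0 and a largest size of 0.26 for Nsdhl. Fatty acid synthesis had a median of -0.02 over 16 genes, and the 2 acetyl-CoA carboxylase genes Acaca and Acacb differed by -0.11 (SE 0.10) and 0.18 (SE 0.11). Among antioxidant genes, with a median of -0.07, Sod2, the mitochondrial superoxide dismutase, had 7.29, 7.53 and 7.62 under phenformin, against 7.63, 7.76 and 7.92 under PBS. Its groups did not overlap, though they nearly touched, and the difference was -0.27 (SE 0.13).

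**Figure D3:**
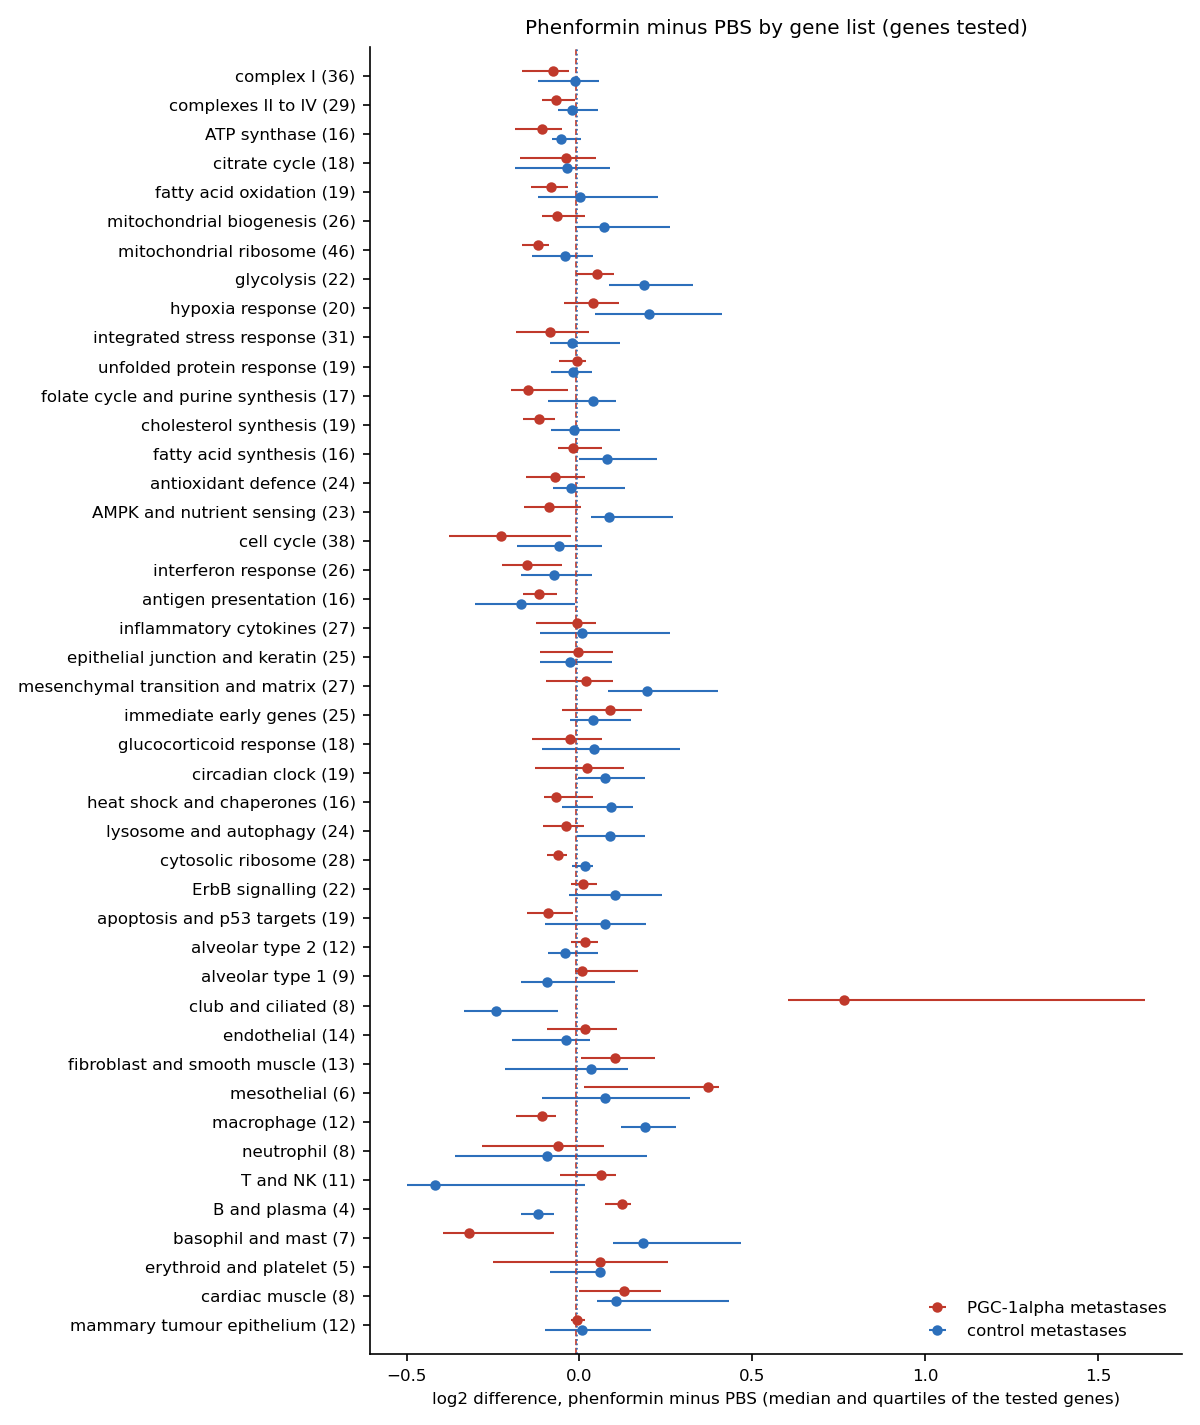
Median (points) and quartiles (bars) of the log2 difference of phenformin minus PBS over the tested genes of each list, in PGC-1alpha metastases (red, above) and control metastases (blue, below), with the number of tested genes in brackets. The dashed and dotted lines mark the medians over all tested genes, -0.01 in each line. Club and ciliated markers (0.77) and cell cycle genes (-0.23) lie farthest to either side among lists of 8 or more genes in PGC-1alpha metastases.

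Cell cycle genes had the lowest median of the pathway lists, -0.23 over 38 genes, against -0.01 over all tested genes. No member passed, and 29 of the 38 differences were below 0. At an unadjusted p under 0.05 in limma, 10 members were lower (26.3%, against 2.26% of all tested genes) and 0 were higher. That number was 6 without phenformin array 3 and also 6 with the club and ciliated marker level as a covariate. These genes are transcribed together in dividing cells, so their differences are not independent of each other. The mean level of the list was 7.83, 8.08 and 8.29 on the phenformin arrays, against 8.14, 8.30 and 8.44 on the PBS arrays. The lower phenformin arrays lay below every PBS array, but the upper ones lay within the PBS range.

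The 3 cell cycle members with the smallest p were Cenpe, Cdc20 and Ccna2. Cenpe, a kinetochore motor, had 7.12, 7.46 and 7.99 under phenformin, against 7.80, 8.12 and 8.32 under PBS, a difference of -0.57 (SE 0.17), with 4 phenformin arrays below all PBS arrays. Cdc20, the activator of the anaphase-promoting complex, had 7.38, 7.77 and 8.30 under phenformin, against 8.01, 8.21 and 8.63 under PBS, a difference of -0.47 (SE 0.16). Ccna2, cyclin A, had 7.78, 8.27 and 9.08 under phenformin, against 8.50, 8.72 and 8.92 under PBS, a difference of -0.44 (SE 0.16). In Ccna2, 5 phenformin arrays lay below all PBS arrays and the remaining one above them. Among members named after their values were seen, Ube2c, which hands ubiquitin to the anaphase-promoting complex, differed by -0.38 (SE 0.14), and the proliferation marker Mki67 by -0.38 (SE 0.19; 95% interval including 0). In control metastases the list median was -0.06, and Cenpe, Cdc20 and Ccna2 differed by -0.21, 0.16 and -0.01.

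Clock and hormone-responsive genes gave mixed values. Dbp, a clock output transcription factor, had 7.63, 8.08 and 8.51 under phenformin, against 6.77, 7.60 and 8.22 under PBS, a difference of 0.60 (SE 0.19). Nr1d1, the REV-ERB alpha repressor of the clock, had 7.37, 7.57 and 7.88 under phenformin, against 6.65, 7.05 and 7.44 under PBS, a difference of 0.54 (SE 0.19), with 5 phenformin arrays above all PBS arrays. Arntl, the BMAL1 gene that Nr1d1 represses, differed the other way, by -0.27 (SE 0.14), and the clock kinase gene Csnk1d by -0.27 (SE 0.13). Over the 19 clock genes the median was 0.02. Besides Fkbp5, the glucocorticoid list held Tsc22d3, another receptor target, with 7.33, 8.12 and 9.01 under phenformin, against 8.29, 8.65 and 8.96 under PBS, a difference of -0.41 (SE 0.20). Dusp1, a MAP kinase phosphatase on the same list, differed by 0.39 (SE 0.22), and the list median was -0.03. Among immediate early genes, with a median of 0.09, Fosb had a difference of 0.34 (SE 0.12) and Nr4a2 one of 0.36 (SE 0.19).

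Immune lists did not separate the groups. The 26 tested genes of the interferon response gave a median of -0.15, with 21 differences below 0 and Oasl1, an oligoadenylate synthetase-like gene, at -0.34 (SE 0.20). Their mean level was 6.73, 6.93 and 7.36 on the phenformin arrays, against 6.65, 7.12 and 7.57 on the PBS arrays, and the groups overlapped over most of their range. Antigen presentation had a median of -0.12 over 16 genes, with the immunoproteasome subunit gene Psmb9 at -0.44 (SE 0.22). Macrophage markers had a median of -0.11, with 2 of 12 differences above 0, the highest at 0.14. Among the lower was C1qc, of complement C1q, at -0.26 (SE 0.15). Neutrophil markers had a median of -0.06 with 3 of 8 differences above 0. S100a8 was at -0.40 (SE 0.20), and Mmp8 was lowest at -0.41. Mmp8 lay below the negative control medians on phenformin arrays 2 to 5 and PBS arrays 3 and 4. The granule protein genes Camp and Ltf were at 0.19 (SE 0.14) and 0.88 (SE 0.67). Ltf was also a leading gene, with the club cell gene Scgb3a2, of the first principal component described further on. T and NK markers had a median of 0.06 with 7 of 11 differences above 0. Among them the granule protein gene Prf1 was at 0.22 (SE 0.16) and the T cell receptor complex gene Cd3g at -0.24 (SE 0.26). Cd3g lay below the negative control medians on phenformin arrays 1, 2 and 4 and on PBS arrays 1, 2, 5 and 6. The neutrophil median was 0.03 without PBS array 1, and that of T and NK markers -0.08 without phenformin array 1. Basophil and mast cell markers had a median of -0.32 over 7 genes, which was -0.14 without PBS array 3. Among them were the basophil protease gene Mcpt8 at -0.32 (SE 0.18) and the mast cell tryptase gene Tpsb2 at -0.48 (SE 0.43), Tpsb2 being at -0.14 without the same array. The cytokine gene Il6 differed by 0.49 (SE 0.37).

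The remaining lists gave no member that passed. Epithelial junction and keratin genes had a median of -0.0046 over 25 genes. Pkp2, the desmosomal protein plakophilin, had 6.37, 6.54 and 6.75 under phenformin, against 6.55, 6.88 and 7.19 under PBS, a difference of -0.33 (SE 0.14), with 3 phenformin arrays below all PBS arrays. Genes of mesenchymal transition and matrix gave a median of 0.02, against 0.19 in control metastases, with the transition factor genes Snai1 at 0.19 (SE 0.12) and Twist1 at 0.31 (SE 0.23). The ErbB signalling list, of the receptor family to which the oncogene belongs, gave a median of 0.01, with the feedback inhibitor gene Spry4 at -0.31 (SE 0.16) and the partner receptor gene Erbb3 at 0.21 (SE 0.15). Apoptosis and p53 targets gave a median of -0.09, with the p53 target Zmat3 at -0.26 (SE 0.12) and 5 of its 6 phenformin arrays below all PBS arrays. Heat shock genes gave -0.07, lysosome and autophagy genes -0.04 and inflammatory cytokines -0.01 as medians. Markers of B and plasma cells gave a median of 0.12 over 4 genes, those of erythroid cells and platelets 0.06 over 5, and those of cardiac muscle 0.13 over 8. Of the 5 erythroid and platelet differences, 3 were above 0, among them the red cell anion exchanger gene Slc4a1 at 0.25 (SE 0.12). The other 2 were below 0, the lowest at -0.27.

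The largest differences in size were in genes of club cells, and these genes also varied most among arrays. Of the 17 genes with a log2 difference beyond 1, the highest were Scgb3a2 and Scgb1a1, secretoglobins of club cells, and Cyp2f2, a cytochrome P450 of the same cells. Others, listed after their values were seen, were Pigr, the receptor that carries immunoglobulin across epithelium, and the cilium genes Pifo, Enkur and Dnah6. The PBS means of Pifo (4.25) and Dnah6 (4.09) lay below the negative controls, whose median averaged 4.82 on the PBS arrays. Over these 17 genes the median SD was 1.71 among phenformin arrays and 0.843 among PBS arrays, against 0.215 and 0.224 over all tested genes. Scgb1a1 had 7.93, 10.66 and 12.45 under phenformin, against 7.18, 7.61 and 11.44 under PBS, a difference of 2.17 (SE 0.84). Scgb3a2 had 4.49, 8.50 and 11.92 under phenformin, against 4.32, 4.97 and 10.11 under PBS, a difference of 2.71 (SE 1.25), and Cyp2f2 differed by 1.46 (SE 0.73). In each of the 3 genes 3 phenformin arrays lay above all PBS arrays, 1 PBS array was high, and the groups overlapped.

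All 8 tested club and ciliated markers had a difference above 0 in PGC-1alpha metastases, with a median of 0.77, and 2 of the 8 (25%, against 2.07% of all tested genes) were higher at an unadjusted p under 0.05 (limma). The median was 0.23 without phenformin array 3 and 0.01 with the level of these same markers as a covariate. Their mean level was 10.12, 8.15 and 7.95 on phenformin arrays 3, 4 and 5, and 6.07 to 6.63 on the other 3. On PBS array 3 it was 7.98, and 5.99 to 6.15 on the other 5 PBS arrays. Control metastases ranged from 6.17 to 8.50 under phenformin and from 6.34 to 8.15 under PBS, with a median difference of -0.24. Ccdc113, a cilium gene of this list, had a PBS mean below the negative controls. With this level as a covariate, chosen after the data were seen, the difference for Scgb3a2 was 0.20. Scgb3a2 is itself one of these markers, so its fall, like that of the list median, is built into the covariate and tests nothing. The difference for Psat1 was -0.74 with that covariate, and between -0.79 and -0.71 over all 13 alternatives that kept the 12 arrays. The first principal component of the 12 arrays held 22.01% of the variance, with the secretoglobins among its leading genes. The groups overlapped on it, at -6.60 to 31.6 under phenformin and -30.6 to 9.94 under PBS. Scores on this component did not simply follow the marker level. Phenformin array 2, with a marker level of 6.07, scored 11.1, above phenformin arrays 4 and 5 at 4.38 and 6.55. The lowest scores, -30.6, -21.4 and -13.6, were those of PBS arrays 4, 6 and 5. These arrays also had the lowest 25th percentiles of the 12, at 5.03, 5.06 and 5.10. The part of array signal in this component was not tested.

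**Figure D4:**
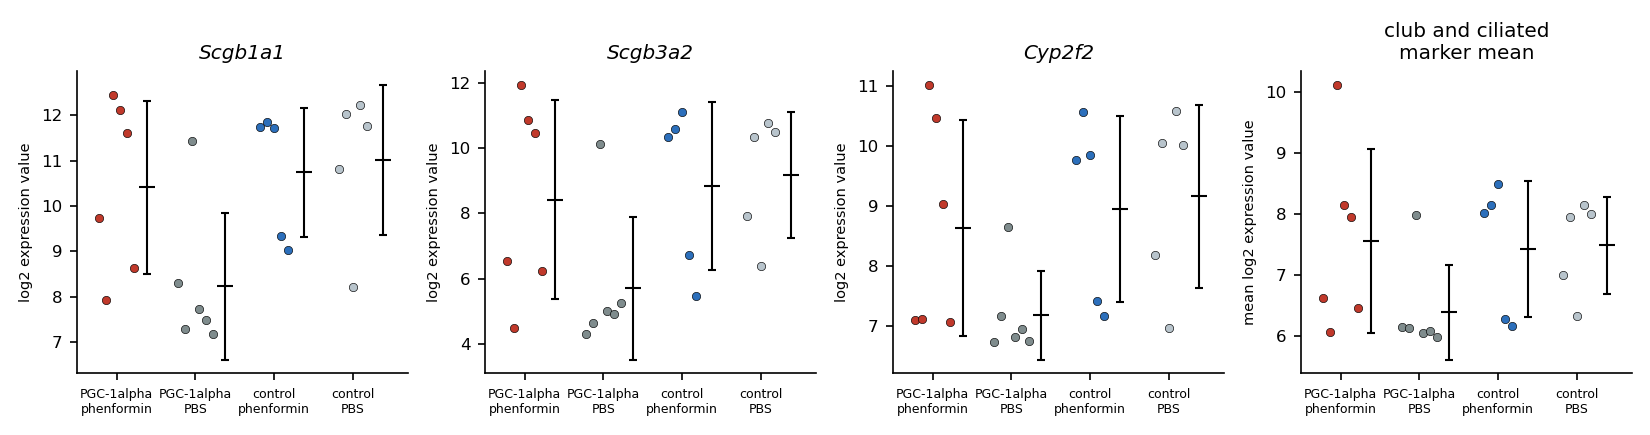
Log2 expression value per array (points) with mean and SD (bars) for 3 club cell genes, and the mean level of the club and ciliated markers, in the same 4 groups from left to right. In PGC-1alpha metastases 3 phenformin arrays and 1 PBS array are high and the other 8 arrays low.

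Markers of other lung cells had smaller differences. Those of alveolar type 2 cells gave a median of 0.02 and a mean level of 10.11, 10.33 and 10.67 under phenformin, against 10.10, 10.37 and 10.56 under PBS. Those of alveolar type 1 cells gave a median of 0.01, with 3 of 9 differences below 0, the lowest at -0.07. The highest was Pdpn, a surface glycoprotein of these cells, at 0.33 (SE 0.16). Endothelial markers had a median of 0.02, and fibroblast and smooth muscle markers one of 0.10. Of the 13 fibroblast and smooth muscle differences 3 were below 0, the lowest at -0.16. Among the higher was the matrix proteoglycan gene Dcn at 0.39 (SE 0.24). Without PBS array 3 these medians were -0.09 for endothelial markers and -0.07 for fibroblast and smooth muscle markers. Mesothelial markers had a median of 0.37 over 6 genes, with 4 differences above 0 and 2 below, the lowest at -0.17. Among the higher were Upk3b, a uroplakin of mesothelium, at 0.88 (SE 0.40) and Wt1, a mesothelial transcription factor, at 0.40 (SE 0.20). Mammary tumour epithelium markers had a median of -0.01 with 8 of 12 differences below 0. Epcam, an epithelial adhesion gene, differed by 0.32 (SE 0.20), and the milk protein gene Csn3 by -0.23 (SE 0.25). The part of each cell type in the other results was not tested beyond the marker covariates.

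The treatment differences of both lines were set side by side, since each used its own arrays. Over the 15545 genes, which are not independent replicates, the phenformin minus PBS difference in PGC-1alpha metastases and that in control metastases correlated with a Pearson r of -0.22 (Spearman rho -0.25), and 9167 genes (59.0%) had opposite signs. Of the 674 genes with an unadjusted p under 0.05 in PGC-1alpha metastases, 469 had the opposite sign in control metastases. In PGC-1alpha and control metastases the dimmest 3109 genes had median differences of 0.06 and -0.08, and the brightest 3109 genes -0.06 and 0.03. The part of these opposite trends with brightness in the correlation and in the counts of signs was not tested. The test of the difference between lines passed no gene (0%; smallest adjusted p = 0.173 in limma), while 1724 genes (11.1%) had an unadjusted p under 0.05. Leaving out phenformin array 3 of the PGC-1alpha line let 2 genes pass, Gpank1 and Fam149b (adjusted p = 0.0443 for each), and leaving out control PBS array 2 let 1 pass, Stard3 (adjusted p = 0.0458).

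The genes with the smallest p for the difference between lines had opposite signs in them. Gpank1, a G-patch and ankyrin repeat gene, averaged 7.55 ± 0.22 under phenformin and 7.87 ± 0.20 under PBS in PGC-1alpha metastases (SD, n = 6 each), and 8.20 ± 0.06 and 7.65 ± 0.07 in control metastases (SD, n = 5 each). The difference between its effects was -0.87 (SE 0.16; unadjusted p = 1.27e-05 in limma). Psat1 followed the same pattern with -1.10 (SE 0.23). Ndufs1, the complex I core subunit, averaged 6.40 ± 0.14 under phenformin and 6.70 ± 0.25 under PBS in PGC-1alpha metastases, and 6.94 ± 0.24 and 6.31 ± 0.25 in control metastases, a difference between effects of -0.93 (SE 0.19; unadjusted p = 7.7e-05 in limma). Nuf2, a kinetochore subunit, had -1.29 (SE 0.27) and the proton channel gene Otop1 -1.96 (SE 0.42). In the other direction stood Rnf150 at 0.77 (SE 0.15), the T cell adaptor gene Sla2 at 0.83 (SE 0.17), the GDNF receptor gene Gfra1 at 0.78 (SE 0.17), the cytokine gene Ctf1 at 0.69 (SE 0.15) and the homeobox gene Evx1 at 0.80 (SE 0.18). Adjusted p was 0.173 for all of these genes.

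**Figure D5:**
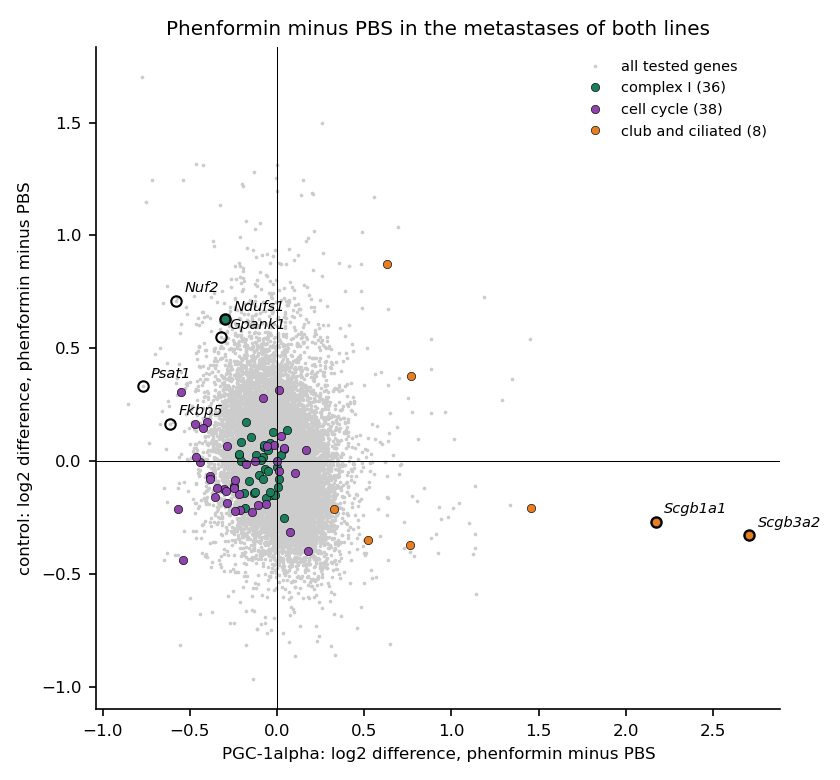
Log2 difference of phenformin minus PBS in PGC-1alpha metastases (x axis) against that in control metastases (y axis) for 15545 tested genes (grey), with complex I, cell cycle and club and ciliated genes in colour and 7 genes named. Most complex I genes lie near 0 in both lines, cell cycle genes mostly left of 0, and Psat1, Ndufs1, Gpank1 and Nuf2 lie in the upper left part.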

How the data were processed

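RNA of laser-captured lung metastases was turned into labelled cDNA with the GeneChip Pico kit, per the labels' protocols, and hybridised to 22 arrays in 4 groups. The deposited values are log2 expression values, 1 per probe set and array, and the scale was read from the values, which have nearly equal medians on all arrays. Per the submitters' processing notes they used oligo, and its version, the background correction, the normalisation and the genome build are not given in the sources used here. A further deposited table was not used, because its 22 columns carry numbers that match no sample label. The number of arrays limits the precision, and replicates may share an animal.

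Of 28815 probe sets, 6609 controls were left out. GEO's platform annotation gave 1 symbol for 19572 of the others, several for 0 and none for 2634. The probe set with the highest mean over all arrays stood for each of 19505 genes, 55 of which had several. Testing required a value over the array's own 25th percentile on 5 or more arrays, which 15545 genes met. One limma 3.58.1 model (R 4.3.3) held all 4 groups (18 residual and 5.67 prior degrees of freedom), and p-values are two-sided, adjusted after Benjamini and Hochberg over all tested genes and called at 0.05. Differences are log2 of phenformin minus PBS with standard errors. The fit was checked on simulated data. Single values were compared by exact permutation over all regroupings of 6 against 6.

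The comparison, gene lists and tests were chosen with earlier results of these data known, so counts over lists are descriptions, with no test of a list. Genes are named by rule: the 10 with the smallest p in each direction (as none passed), the 3 members of each list with the smallest p, Ppargc1a, Erbb2 and the 5 of each sign with the smallest p for the difference between lines. Krt8, Krt18, Mki67, Ube2c, Mthfd2, Atf4, Cebpb, Arntl, Ltf, Ccdc113, Fam149b, Stard3 and some airway genes were named after their values were seen. Promoters are RefSeq's (GRCm38.p6). Figures were drawn with Python and matplotlib. The alternatives tried were other scalings, filters, probe set summaries, variance models, array weights, marker covariates, a replicate block and leaving out each array.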

Additional observations from a re-analysis of the deposited data

Results flagged for a closer look

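In 406 sets of 6 arrays (named genes, list levels and array quality in either PGC-1alpha group) the highest or lowest array was compared with the others by the gap to its neighbour over the whole range, with 0.625 as the limit. In 22 sets, 5.42% of them, 1 array stood apart, close to the 1 in 20 that chance gives.

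PBS array 3 stood apart most often, in 6 sets. It was high for Scgb1a1 (11.44, the other PBS arrays at 7.18 to 8.31), Scgb3a2 (10.11, others 4.32 to 5.26), Cyp2f2 (8.65) and the mean of the club and ciliated markers (7.98), and low for the endothelial marker mean (7.38) and Dld (6.82). Among the other PBS arrays, array 5 was high for Npnt (10.18) and the epithelial junction and keratin level (7.94), array 1 for the atrial peptide gene Nppa (5.82) and array 2 for the milk protein gene Wap (7.14).

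Phenformin array 1 was high for Ndufs4 (9.80, the other phenformin arrays at 9.32 to 9.42), the neutrophil gene Camp (6.06) and the median of positive controls (9.03), and its 25th percentile was low (5.15). Phenformin array 3 was high for the epithelial junction and keratin level (8.14), and array 2 low for the fatty acid synthesis level (8.69). Phenformin array 5 was low for C1qc (7.18) and Oasl1 (5.18) and high for the heat shock and chaperone level (8.81). Phenformin array 6 was low for Creld2 (9.40) and high for Cyp51 (7.83), and array 4 was low for Ctf1 (8.56).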

How the results depend on the processing

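Under 13 alternatives that changed the scaling, filter, probe set summary, variance model, weights, arrays fitted or covariates, no gene passed between phenformin and PBS in PGC-1alpha metastases, with a smallest adjusted p of 0.346 to 0.998, and none did when each of the 12 arrays was left out (smallest adjusted p 0.137 to 0.999). For 160 named genes, 2043 of 2049 values kept their sign under these alternatives. The exceptions were Erbb2 at 0.043 with quantile normalisation, 0.039 with cyclic loess and 0.0088 with the immune marker covariate, Ppargc1a at 0.13 with the normal lung covariate and 0.0095 with the club and ciliated covariate, and Inmt, a stromal gene, at -0.19 with the normal lung covariate. Leaving out 1 array moved Erbb2 between -0.128 and 0.0811, and the cause was not tested. The cell cycle members lower at an unadjusted p under 0.05 were 6 with the club and ciliated covariate, added after the data were seen, and 6 to 13 when 1 array was left out. Of the 44 list medians, 24 kept their sign throughout and 20, none larger than 0.104 in size, turned it when 1 array was left out (18) or under another alternative (16). Medians that kept their sign could still shrink, as for complexes II to IV from -0.07 to -0.01 with cyclic loess. The difference between lines passed 0 genes under all alternatives that kept every array (smallest adjusted p 0.0534 to 0.23) and 0 to 2 when 1 array was left out. Replicate numbers were not taken as pairs, since the labels do not say what they share and the deviations of equal numbers correlated at only 0.006 and 0.038 in 2 of 6 cases. The highest was 0.312, and 4 of 6 phenformin arrays matched their own number best, a hint of pairing from the data. With the replicate block, 0 genes passed for phenformin (smallest adjusted p 0.571) and 0 for the difference between lines (0.0581). The other deposited table could not be run, as its columns match no sample. Array signal limits genes near the negative controls, such as Slc2a3, Btg4, Fam131c, Cd3g and Mmp8.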
